A study of Brassica napus with 36 samples.

Results

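Leaves of the rapeseed variety HX58 were compared with leaves of the variety HX17 after acclimated chilling, the treatment in which seedlings had 14 days at 4 °C followed by a further 12 h at 4 °C. The comparison took the 3 count columns named HX58_CA and the 3 named HX17_CA, 6 of the 36 libraries of the series, and it was chosen by the labels and not by any measured value. It asks how the varieties differed in transcript level once both had been in the cold. Both are early-maturing semi-winter varieties of Brassica napus that differ in cold tolerance.

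The series had 12 groups of 3 libraries, made from the third leaf from the top of seedlings. HX58_CA and HX17_CA seedlings grew for 4 weeks at 20/16 °C (day/night) before the 14 days at 4 °C, and their last 12 h at 4 °C covered 10 h of darkness and 2 h of light. HX58_FA and HX17_FA seedlings had the same acclimation, but their last 12 h were at −4 °C. HX58_MA and HX17_MA were labelled as control A, with no time given, and the groups CB, FB and MB were chilled, frozen and control seedlings without acclimation. CB had 4 °C and FB −4 °C, by the paper's methods for 12 h after 6 weeks at 20/16 °C. For MB the labels give no temperature or time. The growth before sampling thus differed between the acclimated groups and CB and FB. The labels give no other difference in treatment between the varieties. The wording of the sources on whether the replicates were separate plants was not uniform, so p-values measure the spread between these libraries.

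Brassica napus is an allotetraploid with an A subgenome from a Brassica rapa ancestor and a C subgenome from a Brassica oleracea ancestor, so most functions are carried by several near-identical loci. In Arabidopsis, a relative of rapeseed, cold induces the CBF (DREB1) transcription factors, which act downstream of ICE1 and switch on genes for protective proteins such as the dehydrins and the KIN and COR proteins. The circadian clock gates this response, and long cold also silences FLC, the repressor of flowering, a process called vernalization. Genes of plant defence, such as those for pathogenesis-related proteins and chitinases, are also known to respond to low temperature.

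The 6 libraries held between 32680230 and 41884255 counts, and 56261, 54243 and 52780 genes had a count in the HX58_CA libraries, against 60958, 61699 and 58250 genes in the HX17_CA libraries. The coefficient of determination of log10(FPKM + 1) was 0.942 to 0.946 within HX58_CA and 0.929 to 0.979 within HX17_CA, against 0.801 to 0.833 between the varieties. FPKM scales the fragments of a gene by its length and by the mapped fragments of the library, so it corrects a level for gene length and for depth. HX17_CA replicate 3 stood apart in its summed FPKM of cytosolic ribosomal protein genes, which is given with those genes. All 44 loci of a list of leaf mesophyll markers were detected, with summed levels of 184695 to 198517 FPKM in HX58_CA and 161327 to 184911 FPKM in HX17_CA. Single loci of this list were more often lower than higher in HX58, with 8 of 42 tested loci lower, 2 higher and a median log2 fold change of −0.75; with 1 library left out, 3 to 14 were lower, 3 without HX58_CA replicate 3 and 14 without HX17_CA replicate 3. Of the markers of other organs, 46 of 59 seed storage loci, 74 of 94 root loci and 11 of 25 flower loci were at 0 in all 6 libraries. The summed seed storage level was 57.0 to 68.5 FPKM in HX58_CA and 19.4 to 27.3 FPKM in HX17_CA, that of root markers was 33.2 to 38.8 and 10.6 to 18.4 FPKM in HX58_CA and HX17_CA, and that of flower markers was 1.03 to 12.2 and 6.56 to 10.99 FPKM. The part of these levels in the results was not tested. In whole leaves, fewer cells of a type and less RNA per cell cannot be told apart.

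After acclimated chilling, 2796 genes were higher in HX58 and 2951 were lower, out of 49985 genes with enough counts to be tested. A gene was called where the fold change was 2 or more and the adjusted p of edgeR's quasi-likelihood test was under 0.005. The calls were 11.5% of the tested genes, 5.59% higher and 5.9% lower in HX58. In all 5747 calls the groups did not overlap in FPKM, and 43.7% of all tested genes did not overlap either. Of all tested genes, the median log2 fold change was −0.06. Among the calls, 3291 had a mean of 10 FPKM or more in the variety where they were higher, 1558 of them higher in HX58 and 1733 lower. The count depended on the libraries used. It fell to 2902, 3091 and 3117 genes without HX58_CA replicates 1, 2 and 3 in turn, 2924 without HX17_CA replicate 2 and 4085 without HX17_CA replicate 1. Without HX17_CA replicate 3 it rose to 6707 genes. The calls of 2395 genes, 41.7% of the calls, were kept with each library left out in turn, 1205 higher and 1190 lower in HX58.

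**Figure D1:**
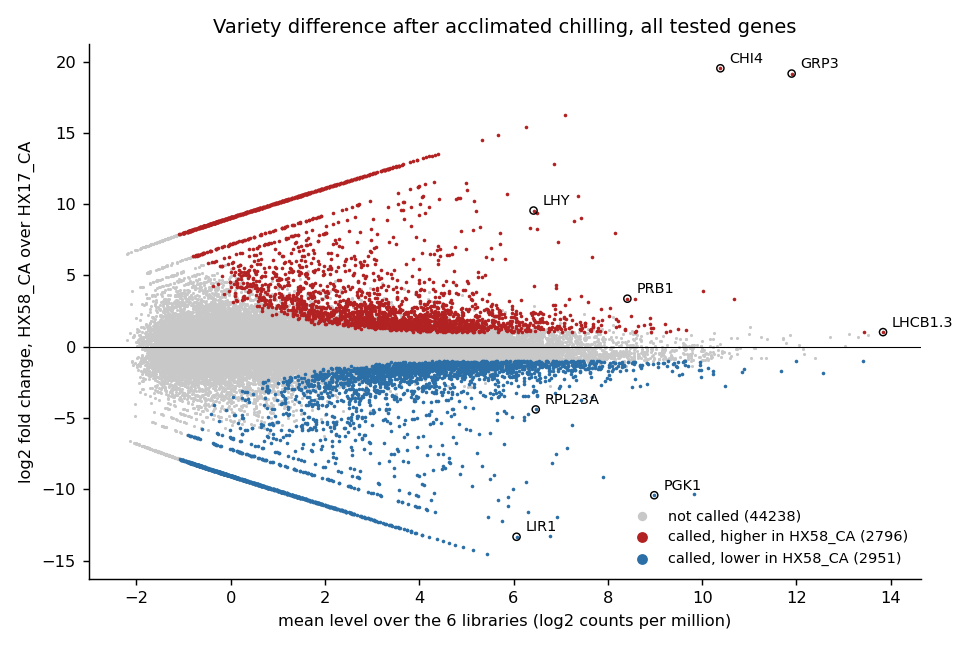
Each point is a tested gene, with its mean level over the 6 libraries on the x axis (log2 counts scaled to depth) and its log2 fold change, HX58_CA over HX17_CA, on the y axis. Called genes, coloured by direction, numbered 2796 above 0 and 2951 below it, and the outermost lines of points are genes with reads in 1 variety only.

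Many of the genes that differed most had reads in only 1 of the varieties. With no count in any of the 3 HX17_CA libraries, 825 genes had a mean of 1 FPKM or more in HX58_CA, and with no count in HX58_CA, 938 genes had that level in HX17_CA. Of the first set, 429 had no count in any of the 18 HX17 libraries of the series, and of the second, 392 had none in any of the 18 HX58 libraries. Loci are named below by the gene identifier of the deposited tables with the Swiss-Prot protein they were matched to. Reads of near-identical A and C copies may have been divided between loci by the counting, so a level of 1 locus is uncertain for such families, and the sum over all loci with the same Swiss-Prot match is given where it bears on the result.

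The largest fitted changes were looked for among calls with a Swiss-Prot match and a mean of 10 FPKM or more in the higher variety. Their groups also had to lie apart, and the call had to be kept with each library left out. Among these genes, a chitinase locus had the largest fitted change. BnaA10g05680D, matched to the basic endochitinase CHB4 (CHI4), an enzyme that cuts chitin of fungal walls, lies on A10 from 3647091 to 3649682. It had 8253, 6603 and 6676 FPKM in HX58_CA, against 0, 0 and 0 FPKM in HX17_CA, so that it was at least 103019-fold higher in HX58, with the HX17 group set to a floor of 3 counts (edgeR adjusted p = 3.07e-07). The locus made up most of its family in HX58, since the sum over the 32 loci with the same Swiss-Prot entry was 7909 ± 923 FPKM in HX58_CA and 81.3 ± 15.1 FPKM in HX17_CA (SD, n = 3 each). The locus was also called higher in HX58 in each of the 5 other conditions.

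A second locus at a very high level was BnaA09g54870D (A09_random, 2841681 to 2843538), matched to glycine-rich protein 3 (GRP3), a cell wall protein that in Arabidopsis binds the wall-associated kinase WAK1. It had 29413, 25807 and 27875 FPKM in HX58_CA, against 0, 0 and 0.102 FPKM in HX17_CA (log2 fold change 19.16 ± 0.38 SE, edgeR adjusted p = 2.3e-08). It was the only locus with that match, and no second locus carried it in either variety. A receptor-like protein locus, BnaA04g28950D (RLP12), had 138, 105 and 125 FPKM in HX58_CA, against 0, 0 and 0 FPKM in HX17_CA, and was at least 10505-fold higher in HX58. The 187 loci with the RLP12 match together differed less, at 230 ± 22.2 FPKM in HX58_CA and 50.8 ± 10.2 FPKM in HX17_CA.

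The other 5 of the 8 genes of this selection with the largest fitted change toward HX58 had no count in HX17_CA. They were BnaA05g19390D (Nol6, a nucleolar protein; 27.4 ± 2.53 FPKM in HX58_CA, at least 3116-fold), BnaCnng05760D (VDAC1, a porin of the mitochondrial outer membrane; 52.9 ± 3.95 FPKM, at least 1618-fold), BnaA03g52770D (a protein of unknown function; 41 ± 7.66 FPKM, at least 1485-fold), BnaC02g02880D (RPS28C, a ribosomal protein; 189 ± 22.5 FPKM, at least 1362-fold) and BnaC02g01270D (a subunit-like protein of a ribonucleoprotein complex that modifies ribosomal RNA; 69.3 ± 5.97 FPKM, at least 1199-fold). For VDAC1 the sum over 6 loci differed much less than the locus did, at 157 ± 9.62 FPKM in HX58_CA and 125 ± 25.7 FPKM in HX17_CA. For RPS28C the sum over 6 loci was 885 ± 51 FPKM in HX58_CA and 1199 ± 516 FPKM in HX17_CA, and for BnaC02g01270D the sum over 10 loci was 153 ± 14 FPKM in HX58_CA and 184 ± 83 FPKM in HX17_CA, with 2 of the other loci called lower and 1 called higher in HX58.

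The 8 genes of the same selection with the largest fitted change toward HX17 included several of the chloroplast. BnaC09g01160D (LIR1, a light-regulated chloroplast protein; C09, 691300 to 691864) had 0.0734, 0 and 0 FPKM in HX58_CA, against 354, 299 and 260 FPKM in HX17_CA (log2 fold change −13.33 ± 0.46 SE, edgeR adjusted p = 3.88e-07). The sum over its 4 loci also differed, with 28.9 ± 4.79 FPKM in HX58_CA and 346 ± 52.8 FPKM in HX17_CA. BnaC02g13690D (APXT, a chloroplast ascorbate peroxidase that removes hydrogen peroxide) had no count in HX58_CA and 32.4, 34.5 and 49.9 FPKM in HX17_CA, and was at least 1583-fold lower in HX58. BnaC08g09260D (SRX, sulfiredoxin, which repairs oxidised peroxiredoxins) had no count in HX58_CA and 46.8, 46.8 and 31.7 FPKM in HX17_CA, at least 918-fold lower. The sums differed less. The 3 APXT loci together were at 49.55 ± 3.95 FPKM in HX58_CA and 135 ± 3.45 FPKM in HX17_CA. The 2 SRX loci together were at 35.6 ± 4.64 FPKM in HX58_CA and 87.2 ± 12.8 FPKM in HX17_CA.

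Another 4 of these 8 genes had no count in HX58_CA. They were the ribosomal protein locus BnaC03g11550D (RPS15A; 148 ± 37.9 FPKM in HX17_CA, at least 1952-fold lower in HX58, with 557 ± 12.6 and 785 ± 188 FPKM in HX58_CA and HX17_CA summed over 10 loci), the pentatricopeptide repeat locus BnaCnng03210D (20.1 ± 1.85 FPKM, at least 1747-fold, with 54.7 ± 2.48 and 67.7 ± 9.12 FPKM summed over 2 loci), BnaCnng59860D (a protein of unknown function; 50.9 ± 4.95 FPKM, at least 1467-fold) and BnaC01g29100D (a homologue of a glucose-induced degradation protein of yeast; 37.5 ± 6.23 FPKM, at least 907-fold). Summed over the 13 loci with the match of BnaCnng59860D, the level was 46.8 ± 4.07 FPKM in HX58_CA and 97 ± 9.42 FPKM in HX17_CA. For BnaC01g29100D the sum over 9 loci was 37.55 ± 3.88 FPKM in HX58_CA and 80.35 ± 0.361 FPKM in HX17_CA. The eighth, BnaC01g35230D, encodes a homologue of the translationally controlled tumour protein (TCTP), a growth regulator. It had 0.121, 0 and 0 FPKM in HX58_CA, against 521, 343 and 365 FPKM in HX17_CA (log2 fold change −13.25 ± 0.53 SE, edgeR adjusted p = 7.12e-07). The sum over the 4 TCTP loci ran the other way, at 2205 ± 162 FPKM in HX58_CA and 1216 ± 178 FPKM in HX17_CA, and 1 of the other 3 loci was called higher in HX58.

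**Figure D2:**
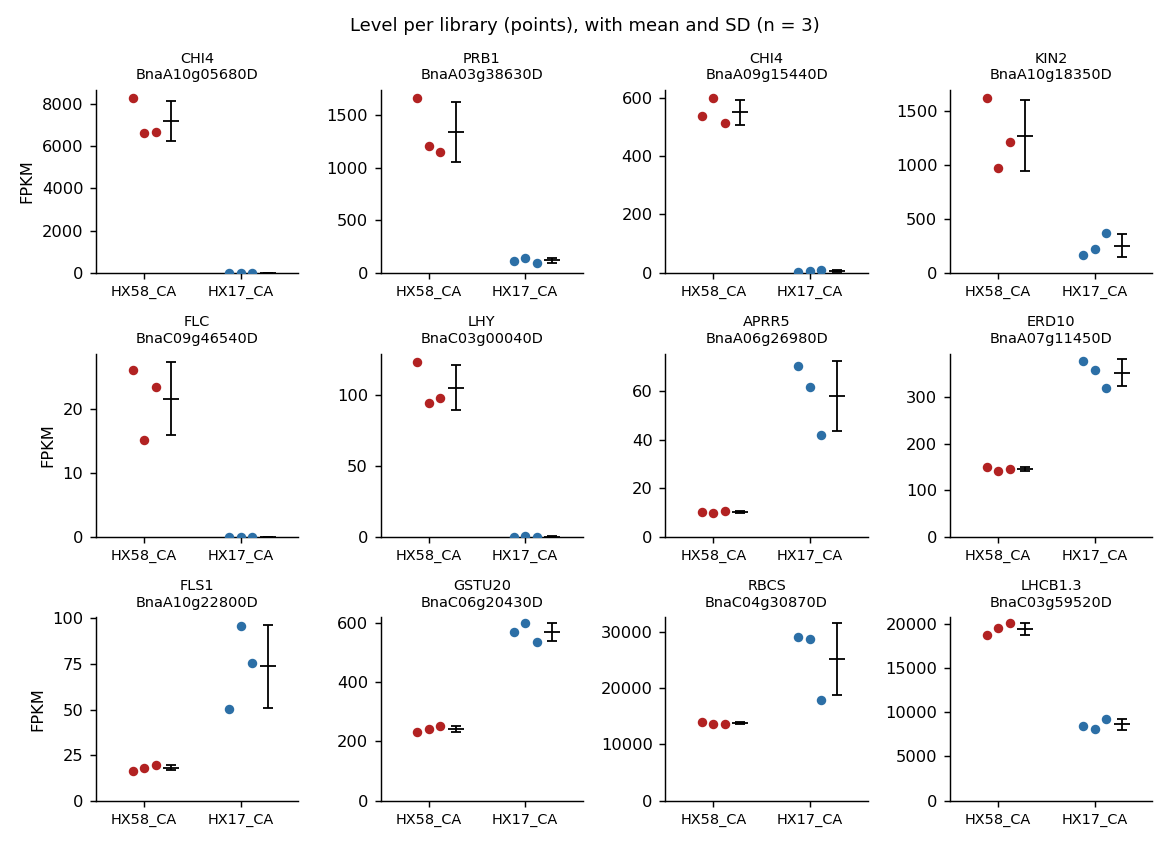
FPKM of 12 named loci in the 3 HX58_CA libraries (red, left) and the 3 HX17_CA libraries (blue, right), 1 point a library, with the mean and SD beside them on linear axes from 0 that differ between panels. CHI4 on A10 lies between 6603 and 8253 FPKM in HX58_CA and at 0 in HX17_CA, whereas ERD10 lies between 141 and 150 FPKM in HX58_CA and between 321 and 378 FPKM in HX17_CA.

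The genes were then grouped by function, through lists of Swiss-Prot names. With 1 library left out, the background changed as well. Higher and lower were 1383 and 1519 of 52205 tested genes without HX58_CA replicate 1, and 1481 and 1610 of 52162 without replicate 2. They were 1503 and 1614 of 52410 without HX58_CA replicate 3, and 1399 and 1525 of 52987 without HX17_CA replicate 2. Without HX17_CA replicates 1 and 3 they were 1951 and 2134 of 52932, and 3755 and 2952 of 52778. List counts of such fits belong beside these. Read against the background of 5.59% higher and 5.9% lower, the list of defence and salicylate genes had the largest share of members higher in HX58 among the lists of 50 or more tested loci, with 20 of 195 higher (10.3%), 3 lower (1.54%) and a median log2 fold change of 0.51. With each library left out in turn, 15 to 18 were higher and 0 to 6 lower, and 14 were higher in every such fit. Besides the chitinase on A10, loci matched to PRB1 and PR1, secreted pathogenesis-related proteins, differed at high level. BnaA03g38630D (PRB1; A03, 19203133 to 19203618) had 1664, 1208 and 1145 FPKM in HX58_CA, against 116, 140 and 98 FPKM in HX17_CA (log2 fold change 3.37 ± 0.22 SE, edgeR adjusted p = 8.84e-06).

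BnaC03g45470D, matched to PR1, had 552, 375 and 385 FPKM in HX58_CA, against 148, 150 and 80 FPKM in HX17_CA (log2 fold change 1.66 ± 0.27 SE, edgeR adjusted p = 0.00189). This call was lost without any 1 of the HX58_CA libraries or without HX17_CA replicate 2. In all, 5 of 15 tested loci matched to CHI4 entries, 5 of 14 tested loci of PR5, a thaumatin-like protein, and 2 of 5 tested PR1 loci were higher in HX58, and none of them was lower. A second chitinase locus, BnaA09g15440D (CHI4; A09, 8979421 to 8980510), had 537, 598 and 513 FPKM in HX58_CA, against 4.51, 5.62 and 8.84 FPKM in HX17_CA (log2 fold change 6.31 ± 0.28 SE, edgeR adjusted p = 1.23e-06). The PR5 locus BnaC06g35810D had 89, 63.5 and 57.2 FPKM in HX58_CA and 0.0392, 1.04 and 1.08 FPKM in HX17_CA, groups that lie far apart.

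Disease resistance genes of the NBS-LRR type, which encode receptors for pathogen effectors, had calls in both directions. Of 218 tested loci 12 were higher (5.5%) and 9 lower (4.1%) in HX58, with a median log2 fold change of 0.08. These shares were near or below the 5.59% higher and 5.9% lower of all tested genes. With single libraries left out, 9 to 13 were higher and 5 to 11 lower, with 5 lower without HX58_CA replicate 1, HX58_CA replicate 3 or HX17_CA replicate 2. BnaA01g33790D (RPP1) had 36.1, 39.2 and 45.3 FPKM in HX58_CA and no count in HX17_CA, at least 527-fold higher in HX58. The opposite held for BnaAnng25650D (RPP8L2), which had 1.84, 1.25 and 0.838 FPKM in HX58_CA, against 56.9, 46.7 and 39.5 FPKM in HX17_CA (log2 fold change −5.33 ± 0.34 SE, edgeR adjusted p = 7.37e-06). The sums differed less. The 72 RPP1 loci together were at 81.8 ± 6.6 FPKM in HX58_CA and 30.7 ± 2.15 FPKM in HX17_CA. The 11 RPP8L2 loci together were at 29 ± 2.77 FPKM in HX58_CA and 73.1 ± 11.8 FPKM in HX17_CA.

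**Figure D3:**
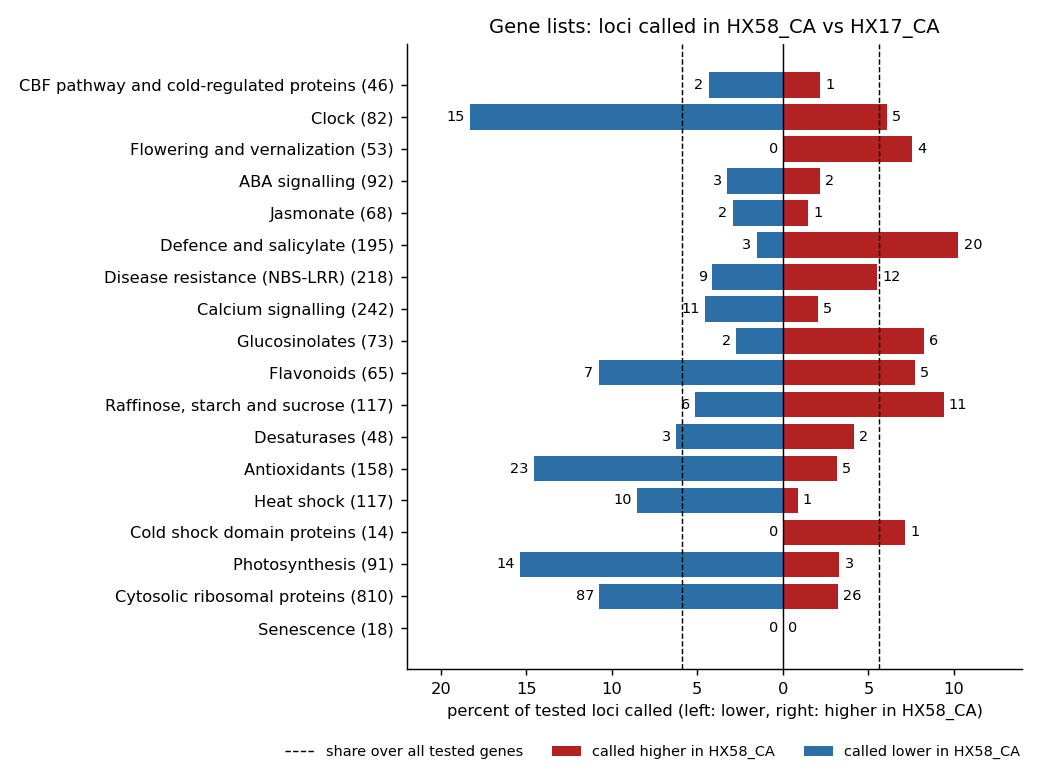
For each gene list (tested loci in brackets), the percent of its tested loci called higher in HX58_CA (right) and lower (left) and, as numbers, how many, with dashed lines at the background of all tested genes, 5.59% higher and 5.9% lower. Defence genes reach 10.3% on the right, and clock genes 18.3% on the left.

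The clock list lay on the other side, with 15 of 82 tested loci lower in HX58 (18.3%), 5 higher (6.1%) and a median log2 fold change of −0.30. With each library left out, 10 to 15 were lower and 3 to 5 higher, and 10 were lower in every such fit. The lower loci included the PRR5, PRR7 and PRR9 loci, which encode the pseudo-response regulators that repress morning genes through the day, and GI, which encodes GIGANTEA. Of 6 tested PRR5 (APRR5) loci 5 were lower, and their summed level was 40.6 ± 1.93 FPKM in HX58_CA and 165 ± 33.8 FPKM in HX17_CA. Both tested GI loci were lower, as were 3 of 4 PRR9 loci and 2 of 4 PRR7 loci, while 1 locus of each of PRR9 and PRR7 was higher.

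BnaA06g26980D (APRR5; A06, 18516186 to 18519844) had 10.1, 9.84 and 10.8 FPKM in HX58_CA, against 70.3, 61.7 and 42.1 FPKM in HX17_CA (log2 fold change −2.64 ± 0.23 SE, edgeR adjusted p = 4.31e-05). BnaC07g29960D (APRR5) had 17, 18.9 and 17.8 FPKM in HX58_CA and 65.1, 58.9 and 37.6 FPKM in HX17_CA, a call lost without HX58_CA replicate 1 or 3. In both, HX17_CA replicate 3 was the lowest HX17 library and still above every HX58 library. LHY, a morning factor of the clock, had a locus near 0 in HX17, since BnaC03g00040D (C03, 11795 to 14513) had 123, 94.2 and 98.1 FPKM in HX58_CA, against 0.152, 0.196 and 0.0173 FPKM in HX17_CA (log2 fold change 9.55 ± 0.49 SE, edgeR adjusted p = 2.46e-06). The sum over 9 LHY loci was closer, at 538 ± 42.1 FPKM in HX58_CA and 438 ± 66.3 FPKM in HX17_CA, and the most abundant locus, BnaC05g00840D, was at 198 ± 18.1 and 241 ± 36.3 FPKM in HX58_CA and HX17_CA (edgeR adjusted p = 0.087).

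Of the flowering and vernalization genes, 4 of 53 tested loci were higher in HX58 (7.55%) and 0 were lower, with a median log2 fold change of −0.12. The higher count was 3 without HX58_CA replicate 1, and the lower count was 1 without HX58_CA replicate 1 or 2. All 4 loci called higher with the 6 libraries encode MADS-box proteins that repress flowering. BnaC09g46540D (FLC; C09, 46366753 to 46370908) had 26.2, 15.2 and 23.5 FPKM in HX58_CA and no count in HX17_CA, at least 549-fold higher in HX58 (edgeR adjusted p = 1.95e-05). BnaA02g34510D (AGL27, also called FLM) had 19.2, 20.4 and 23.6 FPKM in HX58_CA and no count in HX17_CA, at least 451-fold higher. The 4 AGL27 loci together differed less, at 60.4 ± 7.61 FPKM in HX58_CA and 22.7 ± 1.35 FPKM in HX17_CA. A second FLC locus, BnaA03g02820D, had 6.95, 4.71 and 4.79 FPKM in HX58_CA and 0, 0.201 and 0.099 FPKM in HX17_CA, a call lost without HX58_CA replicate 1, and MAF5 (BnaA02g34550D) had 3.75 ± 0.907 and 0.0133 ± 0.023 FPKM in HX58_CA and HX17_CA.

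Summed over 9 FLC loci, the level was 30.6 ± 6.27 FPKM in HX58_CA and 6.08 ± 0.146 FPKM in HX17_CA. The FLC and AGL27 loci named here were also called higher in HX58 in the control MA and in FA. The VIN3-like genes, which in Arabidopsis help to silence FLC in the cold, had no called locus among 7 tested VIL2 loci. The one nearest the limit was BnaAnng10940D (VIL2), with 2.43, 3.07 and 1.41 FPKM in HX58_CA and 4.79, 6.95 and 7.3 FPKM in HX17_CA (edgeR adjusted p = 0.00680).

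The CBF pathway and cold-regulated proteins differed at few loci. Of 46 tested loci, 1 was higher in HX58 (2.17%) and 2 were lower (4.35%), with a median log2 fold change of 0.08. The lower count was 1 without HX58_CA replicate 1, HX58_CA replicate 3 or HX17_CA replicate 2. The higher one was BnaA10g18350D (KIN2, a small hydrophilic stress protein), with 1629, 979 and 1217 FPKM in HX58_CA, against 165, 219 and 369 FPKM in HX17_CA (log2 fold change 2.22 ± 0.30 SE, edgeR adjusted p = 0.000605). The most abundant KIN2 locus, BnaA02g02910D, overlapped between the varieties, with 7305, 6467 and 6860 FPKM in HX58_CA and 6784, 5549 and 5723 FPKM in HX17_CA (log2 fold change 0.06 ± 0.14 SE, edgeR adjusted p = 0.808).

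The dehydrin locus BnaA07g11450D (ERD10) was lower in HX58, with 150, 141 and 146 FPKM in HX58_CA, against 378, 360 and 321 FPKM in HX17_CA (log2 fold change −1.41 ± 0.16 SE, edgeR adjusted p = 0.00018). Its 5 loci together did not show that difference, at 1776 ± 35.9 FPKM in HX58_CA and 1618 ± 149 FPKM in HX17_CA. BnaC02g36310D (SCRM), matched to ICE1, had 0.835, 1.16 and 0.517 FPKM in HX58_CA, against 4.18, 3.54 and 5.5 FPKM in HX17_CA, and its call was lost without HX58_CA replicate 1, HX58_CA replicate 3 or HX17_CA replicate 2, and its 7 loci together were at 22 ± 8.35 FPKM in HX58_CA and 26.3 ± 13.8 FPKM in HX17_CA. The CBF1 locus BnaC03g71900D (DREB1B) had 15.3, 19.9 and 22.2 FPKM in HX58_CA and 39.5, 28.3 and 28.4 FPKM in HX17_CA, which did not pass the test (log2 fold change −0.88 ± 0.24 SE, edgeR adjusted p = 0.0228).

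The cold shock domain proteins, RNA chaperones, had 1 called locus among 14 tested (7.14%). BnaAnng26260D (CSP3) had 9.29, 11.9 and 12.2 FPKM in HX58_CA and no count in HX17_CA, at least 235-fold higher in HX58, while the 4 CSP3 loci together were at 26.2 ± 5.65 FPKM in HX58_CA and 26.4 ± 2.92 FPKM in HX17_CA. The median of the list was −0.75 on the log2 scale, and 2 other CSP3 loci, BnaA07g02430D and BnaCnng42010D, had means of 3.98 ± 2.33 and 6.66 ± 2.43 FPKM in HX58_CA, against 11 ± 3.19 and 14.6 ± 1.17 FPKM in HX17_CA, without passing the test.

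Antioxidant genes were more often lower than higher in HX58, with 23 of 158 tested loci lower (14.6%), 5 higher (3.17%) and a median log2 fold change of −0.42. The lower count was 12, 12 and 13 without HX58_CA replicates 1, 2 and 3 in turn, 13 without HX17_CA replicate 2 and 29 without HX17_CA replicate 3, and 10 loci were lower in every such fit. The higher count was 3 without any 1 of the HX58_CA libraries and 2 without HX17_CA replicate 2. Glutathione S-transferases, which conjugate glutathione to reactive compounds, were 12 of the 23. BnaC06g20430D (GSTU20) had 232, 244 and 252 FPKM in HX58_CA, against 570, 601 and 538 FPKM in HX17_CA (log2 fold change −1.37 ± 0.15 SE, edgeR adjusted p = 0.00015), and BnaC06g20420D (GSTU19) on the same chromosome had 90.5 ± 9.43 FPKM in HX58_CA and 273 ± 13 FPKM in HX17_CA.

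BnaC05g05550D, matched to the cytosolic ascorbate peroxidase APX1, had 96.9, 90.3 and 91.2 FPKM in HX58_CA, against 237, 266 and 210 FPKM in HX17_CA (log2 fold change −1.49 ± 0.17 SE, edgeR adjusted p = 0.000193). The opposite direction was seen at BnaAnng37730D (GSTF8), with 157, 132 and 151 FPKM in HX58_CA, against 45, 46.1 and 28.8 FPKM in HX17_CA (log2 fold change 1.74 ± 0.22 SE, edgeR adjusted p = 0.00044), with 352 ± 29.3 FPKM in HX58_CA and 295 ± 77.9 FPKM in HX17_CA summed over 4 loci. Both superoxide dismutase loci with the match SODC were lower, as were 2 of 4 SODF3 loci. Over the whole antioxidant list, 23 of 167 tested loci were lower and 7 higher in HX58 in the control MA. In FA 35 of 179 were lower and 12 higher. Over all tested genes, 10.7% were called in MA and 17.2% in FA, in either direction.

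The heat shock list held chaperones that keep other proteins folded and heat shock transcription factors. Of its 117 tested loci 10 were lower in HX58 (8.55%) and 1 higher (0.855%), with a median log2 fold change of −0.19. The higher locus, BnaA04g23230D, was matched to the transcription factor HSF8, and 1 of the lower loci, BnaA04g23250D, to the transcription factor HSFA1. The lower count was 3, 4 and 4 without HX58_CA replicates 1, 2 and 3 in turn and 2 without HX17_CA replicate 2, and the higher count was 2 and 3 without HX17_CA replicates 1 and 3. BnaA03g10790D (HSP90-4) was lower in each of these fits, with 12.6, 10.5 and 18.8 FPKM in HX58_CA, against 58, 60.2 and 51.8 FPKM in HX17_CA (log2 fold change −2.16 ± 0.24 SE, edgeR adjusted p = 0.000179).

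Photosynthesis genes had 14 of 91 tested loci lower in HX58 (15.4%) and 3 higher, with a median log2 fold change of −0.45. The 8 of 42 mesophyll markers called lower were all among these 14 loci, so they are no separate observation from the photosynthesis list. The lower count was 8 without HX58_CA replicate 1 and 7 without HX58_CA replicate 3, and 20 without HX17_CA replicate 3, and the higher count was 1 without HX17_CA replicate 2 and 5 without HX17_CA replicate 3. The small subunit of Rubisco, the enzyme that fixes carbon dioxide, and the light-harvesting protein LHCB1.3 lay on opposite sides. BnaA04g08570D (RBCS) had 5353, 4807 and 5027 FPKM in HX58_CA, against 19580, 19369 and 10242 FPKM in HX17_CA (log2 fold change −1.84 ± 0.24 SE, edgeR adjusted p = 0.000433), a call lost without HX58_CA replicate 3.

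BnaC03g59520D (LHCB1.3) had 18689, 19463 and 20069 FPKM in HX58_CA, against 8481, 8087 and 9257 FPKM in HX17_CA (log2 fold change 1.04 ± 0.11 SE, edgeR adjusted p = 0.000132), a call lost without HX17_CA replicate 2. A chloroplast phosphoglycerate kinase, an enzyme of the Calvin cycle, was near 0 at 1 locus in HX58: BnaC01g38270D (PGK1) had 0.191, 0.407 and 0.984 FPKM in HX58_CA, against 756, 698 and 541 FPKM in HX17_CA (log2 fold change −10.42 ± 0.55 SE, edgeR adjusted p = 2.81e-06), while its 5 loci together had 1226 ± 76 FPKM in HX58_CA and 1989 ± 252 FPKM in HX17_CA.

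Cytosolic ribosomal proteins formed the largest list, with 810 tested loci, 26 higher in HX58 (3.21%) and 87 lower (10.7%), and a median log2 fold change of −0.53. In the control MA, 116 of 817 were lower and 29 higher (median −0.73), where 10.7% of all tested genes were called in either direction. In FA 57 of 811 were lower and 41 higher (median −0.37), where 17.2% of all tested genes were called. HX17_CA replicate 3 stood apart in this list, since its summed level was 122529 FPKM, against 78517 and 88979 FPKM in HX17_CA replicates 1 and 2, while the HX58_CA libraries held 75748, 75480 and 78306 FPKM. Without that library, 34 loci were higher and 67 lower, and the median was −0.30. The lower count was 44, 42 and 43 without HX58_CA replicates 1, 2 and 3 in turn and 49 without HX17_CA replicate 2, and the higher count was 17 without HX58_CA replicate 2. Some single loci did not depend on it, such as BnaC08g00720D (RPL23A), with 36.6, 33.4 and 32.1 FPKM in HX58_CA, against 529, 567 and 878 FPKM in HX17_CA (log2 fold change −4.40 ± 0.24 SE, edgeR adjusted p = 3.56e-06), while its 13 loci together had 1645 ± 94.4 FPKM in HX58_CA and 2447 ± 572 FPKM in HX17_CA. BnaA03g02870D (RPS6B) was higher in HX58, with 498, 372 and 392 FPKM in HX58_CA, against 126, 145 and 149 FPKM in HX17_CA (log2 fold change 1.45 ± 0.17 SE, edgeR adjusted p = 0.000254), although its 6 loci together were closer, at 574 ± 83.3 FPKM in HX58_CA and 489 ± 42.9 FPKM in HX17_CA.

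Genes of raffinose, starch and sucrose metabolism supply sugars that protect membranes in the cold. Of 117 tested loci 11 were higher (9.4%) and 6 lower (5.13%) in HX58, with a median log2 fold change of 0.26. The higher count was 5, 6 and 6 without HX58_CA replicates 1, 2 and 3 in turn and 5 without HX17_CA replicate 2. The lower count was 3 without HX58_CA replicate 1 or 3, 2 without HX17_CA replicate 2, 4 without HX17_CA replicate 1 and 11 without HX17_CA replicate 3, where 16 were higher. BnaC05g16660D (SWEET1, a sugar transporter) had 57.2, 55.1 and 60.8 FPKM in HX58_CA, against 14.4, 18 and 16.6 FPKM in HX17_CA (log2 fold change 1.69 ± 0.19 SE, edgeR adjusted p = 0.000202). BnaA09g48480D (GOLS3, galactinol synthase, which starts raffinose synthesis) had 276, 194 and 175 FPKM in HX58_CA, against 102, 77 and 60.7 FPKM in HX17_CA, and BnaA03g42940D (BAM3, a starch-degrading beta-amylase) had 416 ± 94.4 FPKM in HX58_CA and 132 ± 49.6 FPKM in HX17_CA. For GOLS3 the 2 loci together were at 464 ± 83.9 and 220.3 ± 26.1 FPKM in HX58_CA and HX17_CA, and for BAM3 the 7 loci were at 833 ± 194 and 602 ± 208 FPKM. Both of these calls were lost without any 1 of the HX58_CA libraries or without HX17_CA replicate 2.

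Secondary metabolism had calls in both directions. Of 73 tested glucosinolate loci 6 were higher (8.22%) and 2 lower (2.74%) in HX58, with a median log2 fold change of 0.34. Of 65 tested flavonoid loci 5 were higher (7.69%) and 7 lower (10.8%), with a median of −0.39. The glucosinolate calls toward HX58 were 2 to 4 without any 1 of the libraries other than HX17_CA replicate 3, and 8 without that library, and the calls toward HX17 were 0 without any 1 of the HX58_CA libraries; the flavonoid calls toward HX17 were 3 or 4 without HX58_CA replicate 1, 2 or 3 or HX17_CA replicate 2. BnaA04g24160D (CYP83A1, a cytochrome P450 of aliphatic glucosinolate synthesis) had 19, 31.3 and 31.6 FPKM in HX58_CA, against 0, 0.253 and 0.585 FPKM in HX17_CA, and the sum over 4 loci was 77.2 ± 10.6 FPKM in HX58_CA and 9.84 ± 8.65 FPKM in HX17_CA. BnaA10g22800D (FLS1, flavonol synthase) had 16.5, 18.1 and 19.4 FPKM in HX58_CA, against 50.3, 95.6 and 75.5 FPKM in HX17_CA (log2 fold change −2.17 ± 0.25 SE, edgeR adjusted p = 0.000228).

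The remaining lists had shares of calls near or below the background. Of 242 tested calcium signalling loci 5 were higher and 11 lower in HX58 (6, 7 and 6 lower without HX58_CA replicate 1, HX58_CA replicate 2 and HX17_CA replicate 2 in turn), of 92 abscisic acid signalling loci 2 and 3, of 68 jasmonate loci 1 and 2, of 48 desaturase loci 2 and 3, and of 18 senescence loci 0 and 0. The higher count of calcium signalling was 1, 0 and 2 without HX58_CA replicates 1, 2 and 3 in turn and 0 without HX17_CA replicate 2. For abscisic acid signalling, 0 were higher and 1 lower without HX58_CA replicate 1 or HX17_CA replicate 2, 1 and 1 without HX58_CA replicate 2, and 1 and 2 without HX58_CA replicate 3 or HX17_CA replicate 1. For desaturases, 1 was higher and 1 lower without any 1 library other than HX17_CA replicate 3, and 5 and 4 without that one. For jasmonate, 0 were lower without HX58_CA replicate 1 or 2, and 1 without HX17_CA replicate 1 or 2. Among them, BnaA09g51540D (CIPK9, a kinase of calcium signalling) had 0.114, 0.308 and 0.0213 FPKM in HX58_CA, against 68.1, 68.1 and 69.6 FPKM in HX17_CA (log2 fold change −8.97 ± 0.52 SE, edgeR adjusted p = 4.54e-06), while its 5 loci together were at 430 ± 15.2 FPKM in HX58_CA and 398 ± 19.6 FPKM in HX17_CA. BnaAnng01400D (FAD8, a chloroplast omega-3 desaturase) had 3.7, 5.13 and 6.09 FPKM in HX58_CA, against 19.5, 44.6 and 65.8 FPKM in HX17_CA (log2 fold change −3.25 ± 0.41 SE, edgeR adjusted p = 0.000408). The other FAD8 locus, BnaC02g02240D, was called higher in HX58, with means of 8.11 FPKM in HX58_CA and 0 FPKM in HX17_CA (edgeR adjusted p = 2.03e-05), and the sum of both was 13.1 ± 2.03 FPKM in HX58_CA and 43.3 ± 23.2 FPKM in HX17_CA. BnaC06g06590D (AIP1), a protein phosphatase 2C of the type that acts in abscisic acid signalling, had no count in HX58_CA and 12.7, 15.7 and 12.7 FPKM in HX17_CA, at least 353-fold lower in HX58.

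The position of the calls on the chromosomes was examined next. The subgenomes had similar shares, with 5.79% of 23512 tested A genes higher and 6.05% lower in HX58, and 5.42% of 26301 tested C genes higher and 5.76% lower. Some chromosomes departed from this, such as C02 with 231 of 1849 tested genes higher (12.5%) and C01 with 241 of 1954 lower (12.3%). Neighbouring genes were grouped into blocks where windows of 20 tested genes had at least 10 called in 1 direction. This gave 13 blocks on 10 chromosomes, 7 higher and 6 lower in HX58, with 557 of the calls (9.69%). All 13 overlapped a block in windows of 10 genes with at least 5 called and with calls at an adjusted p under 0.05. These overlaps were fixed in advance, since any block of the main rule also meets each of these other rules. With each library left out in turn there were 13 to 17 blocks, and those that had no counterpart were the block on A01, in every such fit, and the block on C05, in every one but that without HX17_CA replicate 3.

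The largest block lay on C01 from 33743629 to 38102701, in coordinates of the deposited tables (Genoscope reference; build number not stated). Of its 204 tested genes 128 were lower in HX58, 2 were higher, and the median log2 fold change was −6.26, or −4.78 with genes without counts in 1 variety set to their bound. It held the TCTP and PGK1 loci on C01 given above. The 426 tested loci of the other subgenome with the same Swiss-Prot matches had 23 lower, 44 higher and a median of 0.24. The C01 block was not particular to acclimated chilling. In the control MA, 134 of its 195 tested genes were lower in HX58 (median −5.53), and in FA 147 of 193 (median −5.77).

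At the start of C02, from 1576 to 2160611, 132 of 185 tested genes were higher in HX58 and 0 lower, with a median log2 fold change of 7.23, or 5.54 with genes at their bound. It held BnaC02g03550D (MT23, a metallothionein, which binds metals), with 1149, 977 and 988 FPKM in HX58_CA, against 6.54, 5.82 and 4.66 FPKM in HX17_CA (log2 fold change 7.37 ± 0.24 SE, edgeR adjusted p = 3.07e-07). The sum over 6 MT23 loci was 2621 ± 259 FPKM in HX58_CA and 2697 ± 1476 FPKM in HX17_CA, and another of these loci was called lower in HX58. The 382 tested loci of the other subgenome with the same matches had 14 higher, 60 lower and a median of −0.43. On C01 and on C02 alike, the median of these loci lay on the other side of 0 from that of the block. In the control MA, 148 of 173 tested genes of the C02 block were higher in HX58 (median 7.06), and in FA 158 of 175 (median 7.11).

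A block on C08 from 33970226 to 34916365 had 46 of 72 tested genes higher in HX58, and 1 at the end of A07, from 23512596 to 23991715, had 50 of 61 higher. The A07 block held BnaA07g35090D (WAKL10, a wall-associated receptor kinase), with 91, 90.4 and 83.1 FPKM in HX58_CA, against 1.16, 0.834 and 0.079 FPKM in HX17_CA (log2 fold change 6.83 ± 0.58 SE, edgeR adjusted p = 3.81e-05). Their counterparts in the other subgenome had medians of −0.38 (141 loci) and −0.46 (137 loci). In the control MA, 47 of 66 tested genes of the C08 block and 51 of 59 of the A07 block were higher in HX58. For every block, the median in each other condition had the same sign as after acclimated chilling. Of the loci named earlier, LHY on C03, LIR1 on C09, RPS15A on C03, CIPK9 on A09 and RPP1 on A01 also lay in blocks. So did BnaC02g01270D, BnaC02g02880D (RPS28C) and BnaC02g02240D (FAD8), which lay in the C02 block. Differences in the genome sequence of the varieties or in how reads of each variety matched the reference cannot be told apart here from differences in transcription, since the tables hold counts only.

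**Figure D4:**
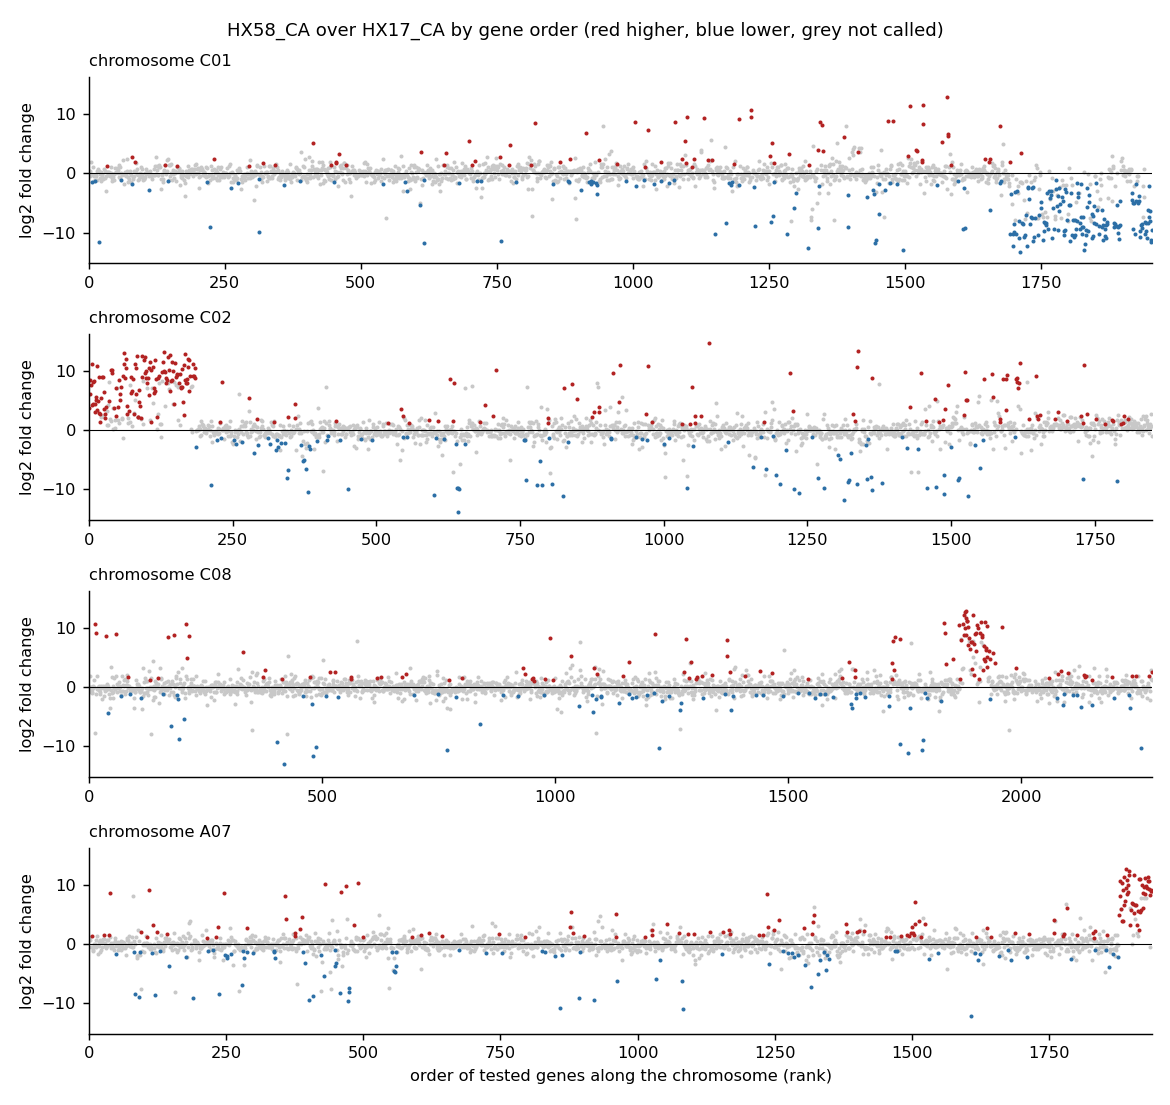
Log2 fold change, HX58_CA over HX17_CA, of each tested gene in its order along the chromosomes C01, C02, C08 and A07 (red called higher, blue called lower, grey not called). The run of genes lower in HX58 on C01 spans ranks 1693 to 1896 of 1954, and the run of genes higher in HX58 on C02 spans ranks 1 to 185 of 1849.

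The same comparison was made in the other conditions to see where acclimated chilling differed. In the control MA, 10.7% of tested genes were called, and 3063 of the 5747 genes called after acclimated chilling (53.3%, and 53.8% of the MA calls) were called in the same direction, against 5 in the opposite direction. After acclimated freezing (FA), with 17.2% of tested genes called, 3696 were called in the same direction (64.3%, out of 9241 FA calls) and 39 in the opposite. In the unacclimated groups MB, CB and FB, 18.7%, 10.7% and 10.4% of tested genes were called. Called in the same direction in all 5 other conditions were 2048 genes, 909 higher and 1139 lower in HX58, and 1428 genes were called in none of them, 928 higher and 500 lower. A gene outside the calls of another condition was not shown to differ from it, which was tested separately.

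The difference between the varieties itself differed between acclimated chilling and the control MA at 95 of 56322 tested genes, 0.169% of them, 64 with a more positive log2 difference in CA and 31 with a more negative one. Leaving out any 1 library gave 13 to 73 genes (73 without HX17_CA replicate 3, and 13 to 39 without any 1 of the other 11). Between acclimated chilling and acclimated freezing, 457 of 56571 tested genes differed (0.808%), 341 more positive in CA (0.603%) and 116 more negative (0.205%). With the control MB in place of MA, 1362 genes differed (2.37%). The count against FA was 159 to 812 with 1 library left out, 812 without HX17_CA replicate 3 and 342 and 471 without HX17_FA replicates 2 and 3. With the 36 libraries in 1 model, the split was 141 against 277 for the first contrast and 240 against 345 for the second, so that the larger share was then more negative in CA. Both contrasts rest on the same HX58_CA and HX17_CA libraries.

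Defence genes were among those that differed between conditions. PRB1 (BnaA03g38630D) was not called in the control, where it had 40.1, 57.5 and 87.1 FPKM in HX58_MA, against 431, 120 and 218 FPKM in HX17_MA, values that did not overlap. After acclimated chilling it was higher in HX58, and after acclimated freezing it was lower, with 116, 175 and 147 FPKM in HX58_FA, against 766, 769 and 382 FPKM in HX17_FA. The log2 difference between the varieties was 5.69 greater in CA than in MA (edgeR adjusted p = 0.000799) and 5.81 greater than in FA (edgeR adjusted p = 4.47e-05). The PR1 locus BnaC03g45470D had the same order, with 157, 250 and 183 FPKM in HX58_FA, against 934, 983 and 391 FPKM in HX17_FA, and its difference was 3.60 greater in CA than in MA and 3.95 greater than in FA (edgeR adjusted p = 0.00291 and 0.000781).

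The CHI4 locus BnaA09g15440D had 18.6, 19 and 27.3 FPKM in HX58_FA and 31.8, 24.2 and 9.58 FPKM in HX17_FA, overlapping groups, whereas after acclimated chilling the varieties lay far apart. Its log2 difference was 6.66 greater in CA than in FA (edgeR adjusted p = 6.58e-05). Of 248 defence loci tested in that contrast, 8 had a more positive difference in CA than in FA (3.23%, against 0.603% of all tested genes) and 1 a more negative one. The chitinase locus on A10 was high in HX58 in every condition and was not called in either contrast.

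Of 90 clock loci tested in the contrast of CA with FA, 7 had a more negative difference in CA (7.78%, against 0.205% of all tested genes) and 0 a more positive one. BnaA06g26980D (APRR5) was near 0 in the control, with 0.434, 0.398 and 0.178 FPKM in HX58_MA and 0.217, 0.541 and 0.314 FPKM in HX17_MA. In acclimated freezing it had 35.3, 35.2 and 39.7 FPKM in HX58_FA and 34.8, 44.6 and 44.8 FPKM in HX17_FA, so that the varieties overlapped at −4 °C but not at 4 °C. The log2 difference in CA minus that in FA was −2.17 (edgeR adjusted p = 0.000729), and −2.50 for BnaC07g29960D (APRR5; edgeR adjusted p = 0.000649).

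**Figure D5:**
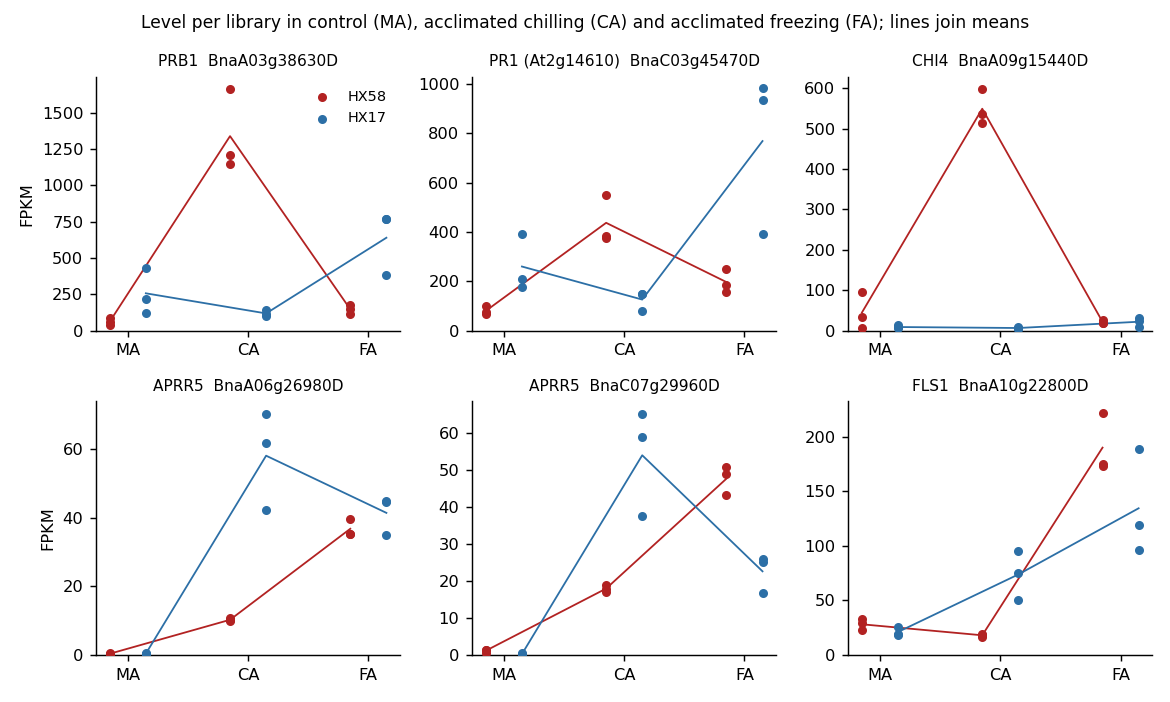
FPKM of 6 loci in the 3 libraries of each variety in the control MA, acclimated chilling CA and acclimated freezing FA (HX58 red, left of HX17 in blue, linear axes from 0, lines join the means). PRB1 lies between 1145 and 1664 FPKM in HX58_CA and between 98 and 140 FPKM in HX17_CA, with HX58 below HX17 in MA and FA.

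The KIN2 locus BnaA02g02910D illustrates a difference present in the control and not called after acclimated chilling. It had 1227, 1183 and 998 FPKM in HX58_MA, against 238, 292 and 255 FPKM in HX17_MA, and overlapped between the varieties in CA at a higher level. The log2 difference in CA minus that in MA was −1.87 (edgeR adjusted p = 0.00268). LHCB1.3 on C03 (BnaC03g59520D) had 7019, 5599 and 6981 FPKM in HX58_MA and 6754, 8066 and 9262 FPKM in HX17_MA, and its log2 difference was 1.53 greater in CA (edgeR adjusted p = 0.00473).

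A COL2 locus, encoding a CONSTANS-like zinc finger protein, had reads in both varieties in the control and in none of the HX58_CA libraries. The HX58_CA libraries had 52780 to 56261 counted genes, against 59789 to 64361 in HX58_MA and 63548 to 65444 in HX58_FA. The part of this in the contrasts between conditions was not tested. BnaAnng39160D had 5.87, 8.93 and 11 FPKM in HX58_MA and 8.25, 5.45 and 9.13 FPKM in HX17_MA. After acclimated chilling it was at 0, 0 and 0 FPKM in HX58_CA, against 40.6, 23.6 and 12.9 FPKM in HX17_CA, at least 771-fold lower in HX58. The 4 COL2 loci together were at 294 ± 16.4 FPKM in HX58_CA and 180 ± 104 FPKM in HX17_CA, and another of them was called higher in HX58. In acclimated freezing BnaAnng39160D was present in HX58, with 20.4, 23.8 and 24.6 FPKM in HX58_FA and 63, 117 and 78.9 FPKM in HX17_FA. SAMDC3 (BnaAnng38530D), an enzyme of polyamine synthesis, had 1.35, 1.21 and 0.706 FPKM in HX58_CA, against 83.6, 70.9 and 43.4 FPKM in HX17_CA, with 23.6, 42.2 and 27.4 FPKM in HX58_MA and 56.8, 45.2 and 64.7 FPKM in HX17_MA. Its 15 loci with the same match were together at 2005 ± 211 FPKM in HX58_CA and 1870 ± 384 FPKM in HX17_CA.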

How the data were processed

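The authors aligned paired-end RNA-seq reads with HISAT2 2.0.4 and counted reads per gene with HTSeq 0.9.1. The deposited tables held raw counts and FPKM for 106340 genes in 36 libraries, the FPKM computed by the authors. The strand setting and the genome version are not given in the sources used here. Columns of group means and of the authors' own comparisons (fold changes, p-values) were not used.

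Counts were tested here with edgeR 4.0.16 (R 4.3.3): filterByExpr (minimum count 10, minimum total 15), TMM factors and the quasi-likelihood F-test within the 6 libraries of a condition, or within 12 libraries for differences between conditions, with Benjamini-Hochberg adjustment over all tested genes. Genes with an adjusted p below 0.005 and at least a 2-fold difference were called. The scripts were tested on simulated data. FPKM served only to show levels. Named genes were those with the largest change (8 in each direction), the most abundant called loci of each list (up to 4) and its most abundant locus, the extremes of each contrast between conditions, the leading genes of the largest blocks, and loci tied to the study. Those with the largest change had to have a Swiss-Prot match and a mean of 10 FPKM or more in the higher variety. They also needed groups that did not overlap and a call kept with each library left out, so their level and separation follow from the selection. Members, lists and rules were chosen with earlier results of these data known. Total counts were 32680230 to 41884255 in the 6 HX58_CA and HX17_CA libraries and 32214015 to 59290772 in all 36, which limits what was detectable near 0. Alternatives were DESeq2 1.42.0, RLE factors, no filter, an adjusted p under 0.05, all 36 libraries in 1 model, the replicate number as a block, other windows, and each library left out. The counts of lists and blocks with each library left out were added after seeing the data. The main fits did not pair samples by replicate number, and whether the numbers pair them could not be decided.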

Additional observations from a re-analysis of the deposited data

Results flagged for a closer look

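These results were set apart because the difference between the varieties, HX58 over HX17, itself differed between conditions by the interaction test of edgeR. The number of such genes was 95 between acclimated chilling (CA) and the control MA, 457 between CA and acclimated freezing (FA) and 1362 between CA and the other control, MB (2.37% of the genes tested there).

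Between CA and MA, the log2 difference between the varieties was more positive in CA by 5.69 for PRB1 (BnaA03g38630D), 3.60 for PR1 (BnaC03g45470D), 1.53 for LHCB1.3 (BnaC03g59520D), 11.14 for DTXL1 (BnaA03g57880D), 6.63 for ABCC3 (BnaA03g32640D) and 4.96 for LBD37 (BnaAnng05130D). The last 3 were lower in HX58 in MA and were not called in CA: LBD37, a transcription factor of nitrogen responses, had 9.97, 4.59 and 13.4 FPKM in HX58_CA and 5.32, 5.88 and 2.29 FPKM in HX17_CA, against 2.08, 4.17 and 2.56 FPKM in HX58_MA and 28.3, 43.2 and 58.3 FPKM in HX17_MA. The difference in CA minus that in MA was −1.87 for KIN2 (BnaA02g02910D), −2.40 for FLS1 (BnaA10g22800D), −12.8 for COL2 (BnaAnng39160D), −7.34 for RPA1B (BnaC05g35070D), −5.06 for BnaCnng18320D, matched to a sugar symporter, and −5.02 for SAMDC3 (BnaAnng38530D). COL2 and RPA1B had no count in HX58_CA, so their fitted values depend on the prior count and are no bound.

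Between CA and FA, the difference was more positive in CA by 5.81 for PRB1 (BnaA03g38630D), 3.95 for PR1 (BnaC03g45470D), 6.63 for PR5 (BnaC06g35810D), and 6.66 and 6.12 for the CHI4 loci BnaA09g15440D and BnaA09g15430D. The difference in CA minus that in FA was −2.50 and −2.17 for the APRR5 loci BnaC07g29960D and BnaA06g26980D, −2.37 for FLS1 (BnaA10g22800D), −10.73 for COL2 (BnaAnng39160D), −10.51 for AGP20 (BnaA04g00600D), −8.12 for ATX1 (BnaAnng02310D) and −7.33 for ATL45 (BnaC07g45620D). AGP20, a cell wall arabinogalactan peptide, had 75.9, 95.9 and 90.2 FPKM in HX58_FA and 2.17, 1.94 and 1.01 FPKM in HX17_FA, against 0 in the HX58_CA libraries and 0.555, 0.231 and 0.710 FPKM in HX17_CA. ATX1 also had no count in HX58_CA. The HX58_CA libraries had the fewest counted genes of the series, 52780 to 56261, and the part of this in the contrasts was not tested.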

How the results depend on the processing

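For HX58_CA against HX17_CA, 5747 genes were called, against 9461 with DESeq2, 13486 at an adjusted p under 0.05 whatever the fold and 10914 (4325 higher, 6589 lower) with all 36 libraries in 1 model. Of the 5747 calls, 5712, 5608, 5724 and 5401 were also called in the same direction with DESeq2, with RLE factors, without the filter and in the 36-library model, and 0 in the opposite direction. Leaving out 1 library gave 2902 to 6707 calls. For HX58_MA against HX17_MA, with 5698 calls, DESeq2 gave 9250, an adjusted p under 0.05 gave 12309, and leaving out 1 library gave 3247 to 5119, the fewest being 3494, 3247 and 3549 without HX58_MA replicate 1, HX17_MA replicate 1 and HX17_MA replicate 3. The contrast of CA with MA (95 genes) gave 1078 with DESeq2, 306 without the filter, 961 at an adjusted p under 0.05, 418 with all 36 libraries, 1362 with MB as the control and 13 to 73 with 1 library left out. The contrast of CA with FA (457 genes) gave 2273 with DESeq2, 800 without the filter, 2607 at an adjusted p under 0.05 and 159 to 812 with 1 library left out. Blocks numbered 55 in windows of 10 genes and 45 at an adjusted p under 0.05, against 13, and 13 to 17 with 1 library left out. The cause of these changes was not tested. Same-numbered libraries of HX58_CA and HX17_CA had correlations of 0.24, −0.124 and 0.0738 over 32923 genes, in their deviations from the group mean. Libraries of unlike number were not compared, so these values cannot decide whether the numbers pair the samples. With the replicate number as a block the counts were 4547 for CA, 2153 for MA, 22 for CA with MA and 301 for CA with FA. Of the 5747 calls in CA, 4287 were also called in the same direction with that block. Of the 135 named genes 99 were called, and these kept their sign in every alternative run, 64 of them their call with each library left out. Values near 0 FPKM rest on few counts. SE and SD hold the spread between these libraries, and floors cover counting error only.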

Other observations

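Some genes of organs other than the leaf were higher in HX58 after acclimated chilling, at low level. Of the root list, the phosphate transporter loci BnaA02g18110D (PHT1-9), BnaA05g06210D (PHT1-4) and BnaC08g19520D (PHT1-8) had means of 6.90, 3.13 and 3.45 FPKM in HX58_CA, against 0.746, 0.210 and 0.320 FPKM in HX17_CA. Of the seed list, the oleosin locus BnaC02g37030D (S2), which encodes a protein of oil bodies, had 15.1 FPKM in HX58_CA and 0.275 FPKM in HX17_CA (log2 fold change 5.65 ± 0.43 SE, edgeR adjusted p = 2.04e-05). No locus of the flower list was called.

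Among sugar transporters, 3 of 5 tested SWEET12 loci were higher in HX58 and 0 were lower, with log2 fold changes of 3.02 to 3.59. The Rubisco small subunit loci BnaA07g14420D and BnaC02g17140D (RBS2 and RBCS-1A) were lower in HX58 in every fit with a library left out, with 1832 and 0.982 FPKM in HX58_CA, against 4969 and 31.7 FPKM in HX17_CA. An actin locus, BnaC05g34300D (AC97), had 51.9, 65.1 and 50.2 FPKM in HX58_CA and 86.3, 91.4 and 79.7 FPKM in HX17_CA, below the limit for a call (log2 fold change −0.76 ± 0.18 SE, edgeR adjusted p = 0.0122).

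Large differences were also found at loci without a Swiss-Prot match. BnaC03g57750D had 169, 92.6 and 148 FPKM in HX58_CA and no count in HX17_CA, at least 5906-fold higher in HX58, and BnaC07g08290D had no count in HX58_CA and 94.1, 74.2 and 270 FPKM in HX17_CA, at least 888-fold lower. Of the 5747 calls, 627 were at transcripts that the authors assembled outside the annotated genes.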
